A study of Homo sapiens with 4 samples.

Results

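Translation factors and aminoacyl-tRNA synthetases are the proteins that start, extend and supply protein synthesis. Their genes were taken from the array by symbol: every probe annotated to a gene whose symbol begins with EIF followed by a digit from 1 to 6 (the EIF2AK kinases left out) or with EEF1 or EEF2, every symbol of the form of an aminoacyl-tRNA synthetase, and EPRS. The rule used no measured value. It found 83 probes of 77 genes among 17397 probes that carry a gene symbol and 30968 probes in all. By role these were 38 initiation factors and their regulators, 6 elongation genes (EEF2K, the kinase of eEF2, among them) and 29 synthetases, 15 of the cytosol and 14 of mitochondria. The remaining 4 genes, EIF2C1 to EIF2C4, are older symbols of the Argonaute proteins, which bind small RNAs and are not translation factors. The array uses older names for other genes too, and 19 members have a different current RefSeq symbol, such as AARS1 for AARS and EIF3L for EIF3EIP.

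Translation of most mRNAs begins when eIF4E binds the cap, the scaffold eIF4G and the helicase eIF4A join it, and eIF3 and the eIF2 complex bring the initiator tRNA to the small ribosomal subunit. eEF1A, recharged by the eEF1B subunits, then delivers each aminoacyl-tRNA, and eEF2 moves the ribosome along. Each synthetase loads a tRNA with its amino acid, and in animals several cytosolic synthetases sit with scaffold proteins in the multi-tRNA synthetase complex. When eIF2 is phosphorylated, its exchange factor eIF2B is inhibited, bulk initiation slows and translation of the transcription factor ATF4 increases. This is called the integrated stress response, and many synthetase genes are known targets of ATF4.

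RNA came from H1299 cells, derived from a human non-small cell lung tumor and stably transfected with a vector in which a promoter of Oct4 or of nestin drives GFP. GFP marks activity of the transfected promoter and not the protein itself. The 4 populations were Oct4/GFP (+) and Nestin/GFP (+), then Oct4/GFP (−) and Nestin/GFP (−), and values below are given in this order. The GFP (+) cells were sorted by flow cytometry, and RNA was taken after 24 h in medium with serum. Transfected lines had been selected with neomycin. The sorting methods describe GFP (−) cells as taken from transfected lines, while the labels of both GFP (−) arrays call the cells negative for the reporter vectors and do not say which sort they came from. Each population was measured once, by hybridizing Cy3-labeled RNA to 1 spotted oligonucleotide array, so a comparison of 2 arrays has no replicates and no p-value, and precision is limited by the number of arrays. A fit over all 4 arrays, given below, is the only test.

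The deposited values are intensities, some of them negative, and their background subtraction is not described. A probe was called above background where its intensity was over 3 noise SD of its array (limits of 15.3, 22.7, 13.9 and 20.3). Over 3980 probes above background on every array, the median deposited ratio was 0.512 for Oct4/GFP (+) over Nestin/GFP (+) and 0.295 for Oct4/GFP (−) over Nestin/GFP (−), so the arrays differed in scale. Levels below are therefore quantile-normalized intensities, unless called deposited. A value under the limit was raised to a floor of 17.25, 18.5, 30.5 or 16.25 on the 4 arrays. Differences are called measured where a gene passed the limit on both arrays compared. Where it passed on only 1, the fold is a lower bound and is given with the words at least. Of 3 epithelial and mesenchymal markers of the line with a probe, VIM was above background on all 4 arrays, and KRT19 and TACSTD1 (EPCAM) were above it on none. NES and SOX2 were above background on no array and POU5F1 has no probe named here, so the reporters could not be checked at their own mRNA. Of 4 markers of other cells with a probe, PTPRC and CD3E (blood cells) were above background on no array. COL1A1 (fibroblasts) was just above it on 2 arrays, at 20.5 in Nestin/GFP (+) and 30.5 in Oct4/GFP (−) cells, and PECAM1 (endothelium) on 1, at 49.75 in Oct4/GFP (−) cells through 1 of its 2 probes. The part of these cells in the results was not tested.

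The translation genes were among the better measured genes of the array. Of the 77 genes, 45 were above background on all 4 arrays, 21 on 1 to 3 arrays and 11 on none. By probe, 54.2% were above background on all 4 arrays against 17.1% of all probes with a symbol, and 16.9% on none against 51.7%. The share of member probes above background was 63.9%, 79.5%, 61.4% and 74.7% on the 4 arrays, and the share of all probes was 27.9%, 26.3%, 19.5% and 29.1%. Fewer member probes were measured in both Oct4 reporter populations, while over all probes the Oct4/GFP (+) array was not below the Nestin/GFP (+) array. All 15 cytosolic synthetases were above background on at least 1 array, and 9 of them on all 4. EIF1, EIF2S1, EIF3A, EIF3M, EIF5, EEF2K, EIF2C2, EIF2C4, AARS2, LARS2 and NARS2 were not above background on any array. For these genes RNA was not detectable with their probes, which differs from its absence.

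**Figure D1:**
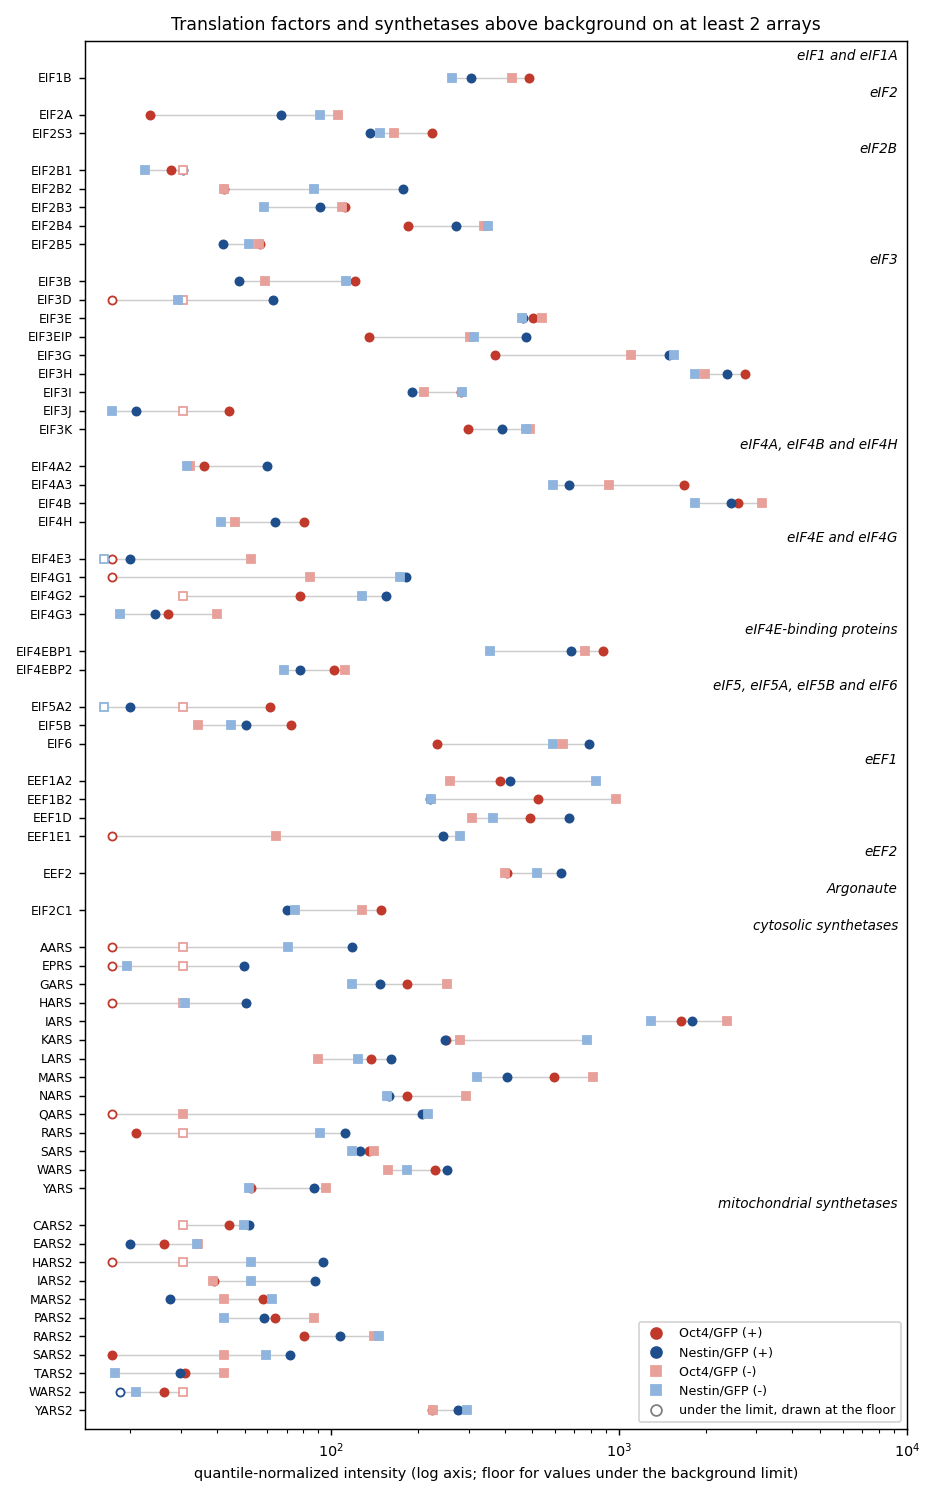
Quantile-normalized intensity (log axis) of the members above background on at least 2 arrays, grouped by family. Circles are GFP (+) and squares GFP (−) arrays, red for the Oct4 and blue for the nestin reporter, with open symbols for values under the background limit, drawn at that array's floor. QARS, AARS, RARS and EEF1E1 have both red symbols far to the left of both blue ones, and EEF1B2 has both to the right.

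The first question was how cells with an active Oct4 promoter differ from cells with an active nestin promoter. In Oct4/GFP (+) cells 16 of 64 members compared were more than 2-fold lower than in the Nestin/GFP (+) cells and 7 were higher. Over all 6466 genes compared, 16.1% were lower and 13.3% were higher, 29.4% in all. The 16 lower members included 8 bounds, and the 7 higher ones (10.9%) none. The median over the 51 measured members was 0.08 on the log2 scale, against 0.06 over all genes measured. This median covers only members above background on both arrays. It leaves out the bounds, and all bounds past 2-fold were lower in Oct4/GFP (+) cells. The balance depended on scaling: with each array centred on its own median, 35 of 63 members were lower and 0 higher. These medians, 7, 7, 4 and 9 as deposited, were under the background limits of the arrays, so this centring follows probes not above background. In that setting 47.4% of all genes were lower and 2.66% higher, at a median of -0.96. In bulk RNA, fewer cells that express a gene and less RNA per cell cannot be told apart.

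The same comparison was made between the GFP (−) populations, on a pair of arrays of their own. There 9 of 56 members were more than 2-fold lower in Oct4/GFP (−) than in the Nestin/GFP (−) cells and 9 were higher. Of all 4999 genes compared, 12.4% were lower and 21.2% higher, 33.6% in all. The medians were 0.08 for the 48 measured members and 0.16 for all genes. With median centring the split was 20 lower and 2 higher of 57, where 27.7% and 6.95% of all genes were, at an all-gene median of -0.51.

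Across both reporter comparisons, 6 of 55 members (10.9%) were more than 2-fold lower in the Oct4 populations each time, where 4.4% of all 4479 genes were. The 6 genes were QARS, EEF1E1, AARS, RARS, EIF4G1 and EIF2B2. EEF1B2 alone was higher in both (4.91% of all genes), and 0 members differed by more than 2-fold in opposite directions, against 86 of all genes (1.92%). Over the 45 members measured on all 4 arrays the differences correlated with r = 0.35 and rho = 0.35, and over all 2853 such genes with r = 0.29 and rho = 0.31. These are correlations across genes of the same 4 arrays, and genes are not independent replicates.

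QARS, which charges tRNA with glutamine, had deposited intensities of 1, 357, 14 and 276, so its probe was bright on both Nestin arrays and near background on both Oct4 arrays. Its normalized level was at the floor in Oct4/GFP (+), 207.5 in Nestin/GFP (+), 30.5 in Oct4/GFP (−) and 217.75 in Nestin/GFP (−). Between the GFP (+) arrays this is a log2 difference of -3.59 or beyond, and in the GFP (−) pair QARS was 7.14-fold lower. The Oct4/GFP (−) probe was barely over its limit of 13.9, at the floor, and the latter difference shrank from -2.84 to -1.76 on the log2 scale with a limit of 5 noise SD and to -1.73 with an offset of 50. The Nestin arrays themselves differed by 1.05-fold. EEF1E1 showed the same separation. Its protein, also called AIMP3 or p18, is named for its likeness to elongation factors but is a scaffold of the multi-tRNA synthetase complex. Its deposited intensities were -9, 423, 24 and 357, and the normalized levels were 245 and 281 on the Nestin arrays against 64.2 in Oct4/GFP (−) and the floor in Oct4/GFP (+). EEF1E1 was at least 14.2-fold lower in the GFP (+) comparison and 4.37-fold lower in the GFP (−) comparison. QARS and EEF1E1 were more than 2-fold lower in both comparisons under every scaling, limit and offset tried.

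RARS, the arginyl-tRNA synthetase and a further subunit of the complex, had deposited intensities of 19, 187, 6 and 117. It was 5.30-fold lower between the GFP (+) arrays, and between the GFP (−) arrays the bound was -1.58 on the log2 scale. AARS, the alanyl-tRNA synthetase, which works outside the complex, had deposited intensities of -2, 200, 13 and 93, under the limit on both Oct4 arrays. The bounds were at least 6.87-fold and at least 2.33-fold. For both enzymes the Oct4 and Nestin arrays did not overlap. With a limit of 5 noise SD the bound in the GFP (−) pair shrank to a log2 difference of -0.51 for RARS and -0.14 for AARS, which are under 2-fold, because the floor of the Oct4/GFP (−) array rises with the limit.

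The other synthetases of the complex varied in direction. These subunits were set beside each other after their values were seen. IARS (isoleucine), LARS (leucine) and MARS (methionine) differed by less than 2-fold between the GFP (+) arrays, at log2 differences of -0.13, -0.24 and 0.53. KARS (lysine) was at 250, 248.5 and 281 on the first 3 arrays and at 775 in Nestin/GFP (−) cells, 2.76-fold above Oct4/GFP (−) and 3.12-fold above Nestin/GFP (+) cells. EPRS, a single protein that charges tRNA with both glutamate and proline, had deposited intensities of 12, 76, 7 and 25. It was above background on the Nestin arrays only, at least 2.88-fold lower in Oct4/GFP (+) than in the Nestin/GFP (+) cells, and 2.55-fold higher in Nestin/GFP (+) than in the Nestin/GFP (−) cells. EPRS is dim, and with a limit of 5 noise SD both differences were under 2-fold (-0.68 and 0.92 on the log2 scale).

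EIF4G1, the scaffold to which eIF4E, eIF4A and eIF3 attach, had deposited intensities of 4, 316, 31 and 220. It was at least 10.6-fold lower in Oct4/GFP (+) than in the Nestin/GFP (+) cells and 2.05-fold lower in Oct4/GFP (−) than in the Nestin/GFP (−) cells. The Oct4/GFP (+) level was also at least 4.88-fold under that of Oct4/GFP (−), so this array was the lowest of the 4. EIF2B2, the beta subunit of the eIF2 exchange factor, stood at 42.5 on both Oct4 arrays, at 177 in Nestin/GFP (+) and at 87.2 in Nestin/GFP (−) cells. It was 4.16-fold lower in the GFP (+) pair and 2.05-fold lower in the GFP (−) pair, where it lay just past 2-fold and was under it in 3 alternatives, at -0.98 on the log2 scale with centring on bright probes, -0.44 with a limit of 5 noise SD and -0.57 with an offset of 50. The other subunits of eIF2B did not share this: EIF2B1, EIF2B3, EIF2B4 and EIF2B5 differed by less than 2-fold in every comparison in which they were measured.

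EEF1B2 was the member higher in both Oct4 populations. It encodes the eEF1B subunit that exchanges GDP for GTP on eEF1A. Its normalized levels were 522, 220.5, 977 and 221.5, which is 2.37-fold higher in Oct4/GFP (+) than in the Nestin/GFP (+) cells and 4.41-fold higher in the GFP (−) pair. The deposited intensities were nearly level, at 363, 382, 310 and 282, so its difference appears only after scaling. With median centring the GFP (+) difference turned to -0.07 on the log2 scale, while the GFP (−) difference stayed above 2-fold. EEF1D, another eEF1B subunit, lay within 2-fold in all 4 comparisons (490, 670.5, 309 and 365). EEF1A2, the eEF1A form of muscle and neurons that is also found in some tumors, had levels of 385, 419, 259 and 832 and was 3.21-fold lower in Oct4/GFP (−) than in the Nestin/GFP (−) cells. EEF2 had levels of 407, 628, 402 and 517, higher on both Nestin arrays but by less than 2-fold.

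**Figure D2:**
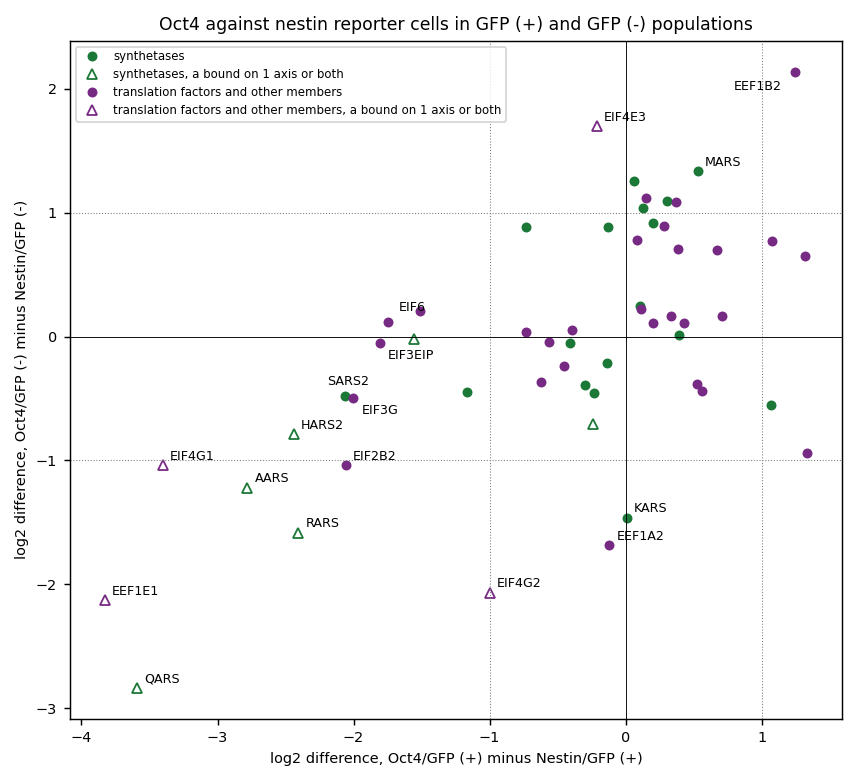
Log2 difference between the Oct4 and the Nestin reporter array in the GFP (+) populations (x axis) and in the GFP (−) populations (y axis), 1 symbol per member, with triangles where a value is a bound and dotted lines at 2-fold. QARS, EEF1E1, RARS, AARS, EIF4G1 and EIF2B2 lie past 2-fold at the lower left, EEF1B2 lies past it at the upper right, and no member lies past it at the upper left or lower right.

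Among initiation factors another set was low, after scaling, on the Oct4/GFP (+) array alone. As deposited, its genes were low on both Oct4 arrays, so this order rests on the scaling. EIF3G and EIF3EIP are subunits of eIF3, the largest initiation factor, which holds the small ribosomal subunit. EIF3G had levels of 371.5, 1489, 1099 and 1550.5, so it was 4.01-fold lower in Oct4/GFP (+) than in the Nestin/GFP (+) cells and 2.96-fold lower than in Oct4/GFP (−) cells. Its deposited intensities were 255, 2507, 351 and 1905, and its other probe was under the limit on every array. EIF3EIP had levels of 136, 474, 302.5 and 313, and was 3.49-fold and 2.23-fold lower in the same comparisons. Deposited intensities of EIF3EIP were 91, 830, 95 and 390. Among other eIF3 subunits, EIF3E, EIF3H, EIF3I and EIF3K stayed within 2-fold in all 4 comparisons, with EIF3H at 2740, 2381, 1983 and 1838.5. The subunits of this complex therefore did not vary together on these arrays.

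EIF6 keeps the large ribosomal subunit from joining too early, and it is the member with a pair of probes above background on all 4 arrays. The first probe had deposited intensities of 328, 1964, 355 and 1279 and the second of 81, 947, 115 and 436. In Oct4/GFP (+) against Nestin/GFP (+) cells the log2 differences were -1.28 and -2.21, and against Oct4/GFP (−) cells they were -1.25 and -1.65. Both probes thus placed EIF6 lower on the Oct4/GFP (+) array, and in the GFP (−) pair they differed by 0.14 and 0.10. EIF2A, which can bring initiator tRNA to the ribosome on some mRNAs and is not a subunit of eIF2, had levels of 23.5, 67, 105.5 and 91.5. It was 2.85-fold lower in Oct4/GFP (+) than in the Nestin/GFP (+) cells and 4.49-fold lower than in Oct4/GFP (−) cells. EIF2S3, the gamma subunit of eIF2 itself, lay within 2-fold throughout (223.5, 136.5, 165 and 147). SARS2, the mitochondrial seryl-tRNA synthetase, had levels of 17.25, 72, 42.5 and 59.25 and deposited intensities of 16, 112, 17 and 78, just above the limit on both Oct4 arrays.

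The Oct4/GFP (+) array stood apart from the others over the whole series. On it 79 probes were over 8-fold lower than the mean of the other 3 arrays, which themselves were above 200, against 1 on the Nestin/GFP (+), 4 on the Oct4/GFP (−) and 0 on the Nestin/GFP (−) array. No member probe met this rule. The nearest were EEF1E1, 9.52-fold under a mean of 164, and EIF4G1, 8.03-fold under a mean of 139, whose means are under 200. Whether a lower value of a single probe on this array reflects lower RNA or loss of signal at its spot was not tested. The separation of QARS, RARS, AARS and EEF1E1 in the GFP (−) comparison does not use this array, other than through the normalization.

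Some initiation factors were higher in Oct4/GFP (+) cells. EIF4A3 is a helicase of the exon junction complex with sequence likeness to eIF4A, and had levels of 1678.5, 672, 925 and 588.5. Its level in Oct4/GFP (+) was 2.50-fold that in Nestin/GFP (+) cells, and its deposited intensities on that pair were 1301 and 1152. EIF3B, a core eIF3 subunit, had levels of 120.5, 47.75, 58.75 and 112.5 and was 2.52-fold higher. EIF5A2, the second gene for the hypusine-carrying factor eIF5A, had levels of 61.5 and 20 on the GFP (+) arrays, 3.08-fold apart, and was under the limit on both GFP (−) arrays. EIF3B, EIF4A3 and EIF5A2 were all under 2-fold when arrays were centred on their medians. EIF4B, a partner of the helicase eIF4A, stayed within 2-fold at 2597, 2455, 3139 and 1829.5. Within the cap-binding group, EIF4E was above background on 1 array only, and EIF4G2, a relative of eIF4G that does not bind eIF4E, had levels of 77.75, 155.5, 30.5 and 128, with the third under the limit.

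In the GFP (−) pair the members higher in Oct4/GFP (−) than in the Nestin/GFP (−) cells were EEF1B2, MARS, TARS2, EIF4G3, GARS, EIF4EBP1 and PARS2, with EIF4E3 and EIF4ENIF1 as bounds. EIF4EBP1, the TOR-regulated repressor that holds eIF4E away from eIF4G and a known ATF4 target, had levels of 878, 679, 760 and 357, lowest in Nestin/GFP (−) cells, and was 2.13-fold higher in Oct4/GFP (−) cells. It was under 2-fold in 3 alternatives, at 0.24 on the log2 scale with median centring, 0.82 with centring on bright probes and 0.99 with an offset of 50. Its relative EIF4EBP2 had levels of 102, 78, 112 and 68.5 and stayed within 2-fold. The value for EIF4G3, 2.17-fold, joins different probes on the arrays, since 1 probe was above the limit in Oct4/GFP (−) cells and another in Nestin/GFP (−) cells. TARS2 and PARS2 charge threonine and proline tRNAs in mitochondria and were dim, at 42.5 against 17.75 and at 87.2 against 42.5.

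**Figure D3:**
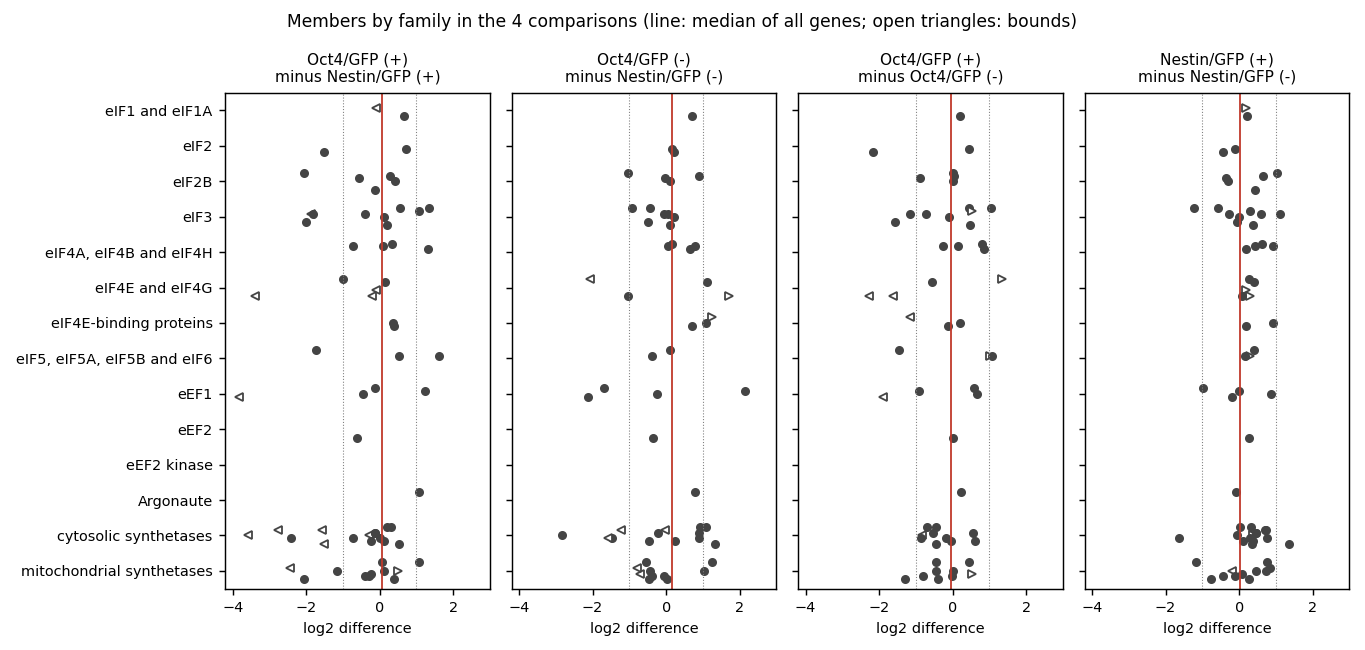
Log2 difference of each member in the 4 comparisons, by family, with filled circles for measured differences, open triangles for bounds, dotted lines at 2-fold and a red line at the median of all genes. The cytosolic synthetases reach from a bound of -3.59 (QARS) to 0.53 in the first panel. In the third the measured ones lie within 2-fold, and QARS is a bound at -0.82.

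The synthetases that were high in Oct4/GFP (−) cells differed from QARS, RARS and AARS in direction. Of the 17 synthetases above background on all 4 arrays, 9 (52.9%) had their highest level on the Oct4/GFP (−) array, and 0 had it on Oct4/GFP (+). Of all 2853 such genes, 29.7% were highest on Oct4/GFP (−). This reading was made after the values were seen, and it rests on the scaling. As deposited, MARS, GARS, IARS and NARS were brightest on the Nestin/GFP (+) array and dimmest on Oct4/GFP (−), with MARS at 409, 717, 257 and 405. The count also includes near ties, such as EARS2 at 34.5 in Oct4/GFP (−) and 34.25 in Nestin/GFP (−) cells. Since ATF4 is known to act on synthetase genes through the sequence TGATGNAA, the core of the C/EBP-ATF response element, the promoters of the members were searched for it on both strands, from 250 bases before to 50 after the RefSeq start. It occurred in 4.46% of all 27305 genes with a promoter in the table, in 8 of 64 members (12.5%) and in 7 of 25 synthetases. The windows around these 7 sites are shown because they carry the motif, in capitals, as TGATGNAA or as its reverse complement. They are reference sequence of build GRCh38.p14 written 5′ to 3′ on the strand of the gene:
MARS (MARS1), chr12:57488044-57488091, + strand: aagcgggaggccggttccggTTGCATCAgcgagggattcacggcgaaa
GARS (GARS1), chr7:30594825-30594872, + strand: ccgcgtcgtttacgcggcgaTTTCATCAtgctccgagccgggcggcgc
IARS (IARS1), chr9:92293683-92293730, − strand: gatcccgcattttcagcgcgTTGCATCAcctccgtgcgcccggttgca
NARS (NARS1), chr18:57621812-57621842, − strand: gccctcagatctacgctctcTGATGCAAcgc
CARS (CARS1), chr11:3057399-3057445, − strand: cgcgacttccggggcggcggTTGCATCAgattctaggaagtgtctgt
AARS (AARS1), chr16:70289666-70289713, − strand: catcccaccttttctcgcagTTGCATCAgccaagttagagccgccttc
YARS2 (YARS2), chr12:32756067-32756114, − strand: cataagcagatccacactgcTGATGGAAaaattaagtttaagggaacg

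The site began 4 bases before the start of MARS, 33 before GARS, 13 before IARS and 2 before CARS, and at base 15 of the NARS transcript. In AARS and YARS2 it lay farther out, 187 and 197 bases before the start. The E-box CACGTG and the ETS core CCGGAAG were searched in the same way, and none of the TGATGNAA sites overlapped either. CCGGAAG occurred in 25 of 64 members (39.1%) against 12.2% of all genes, and CACGTG in 14 (21.9%) against 8.77%. Among the 25 synthetases CCGGAAG occurred in 14 and CACGTG in 4, beside 7 with TGATGNAA, so TGATGNAA was not the most frequent of these motifs there. A match is a description of the letters and does not show that a factor binds there.

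MARS, GARS, IARS and NARS, the 4 synthetases with the motif near the start that were measured on all arrays, shared the same order of levels at both ends. MARS had levels of 592, 409.5, 812 and 322, GARS, which charges glycine, of 183, 148, 251.5 and 118, and each was highest in Oct4/GFP (−) and lowest in Nestin/GFP (−) cells. IARS had levels of 1640, 1792, 2381 and 1292.5, and NARS, the asparagine enzyme, of 183, 159, 295 and 156. The log2 differences between the GFP (−) arrays were 1.34 for MARS, 1.09 for GARS, 0.92 for NARS and 0.88 for IARS. Between Oct4/GFP (+) and Oct4/GFP (−) cells, a comparison that shares the Oct4/GFP (−) array, they were -0.46, -0.46, -0.69 and -0.54. With median centring the GFP (−) differences were 0.51, 0.27, 0.06 and 0.12, above the all-gene median of -0.51 but under 2-fold. YARS2, whose site is distant, was at -0.39, and AARS was at least 2.33-fold lower. Over the 5 measured synthetases with the motif the median was 0.92 (-0.39 to 1.34), and over the 10 without it -0.33 (-2.84 to 1.26). These ranges overlap, and YARS, for which no promoter was in the table, was at 0.89.

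The eIF2 kinases and genes of the integrated stress response, 23 with a probe, were counted beside the members. In Oct4/GFP (−) against Nestin/GFP (−) cells 7 of 17 compared were more than 2-fold higher and 1 was lower (21.2% and 12.4% of all genes), with a median of 0.90 over those measured. In Oct4/GFP (+) against Oct4/GFP (−) cells 2 of 18 were higher and 7 lower (10.6% and 19.5% of all genes). Between the GFP (+) arrays 1 was higher and 3 lower of 18 (13.3% and 16.1% of all genes). Between the Nestin arrays 5 of 19 (26.3%) were higher in GFP (+) cells and 2 lower, where 7.4% and 5.81% of all genes were. With median centring the GFP (−) counts were 2 higher and 4 lower of 18, where 6.95% and 27.7% of all genes were. The list's median of 0.35 then stood above -0.51 for all genes. With centring on bright probes the GFP (−) counts were 7 higher and 0 lower of 17, where 22.7% and 11.2% of all genes were.

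The following list genes are named after their values were seen. ASNS, the asparagine synthetase enzyme, had levels of 473, 873, 1316 and 154.5, so it was high in Oct4/GFP (−) and lowest in Nestin/GFP (−) cells. SESN2, an inhibitor of TOR complex 1 that senses leucine, had levels of 61.5, 74.2, 328 and 28.1. TRIB3, a pseudokinase that binds ATF4, had levels of 87.5, 79, 309 and 91.5, and DDIT3, the transcription factor CHOP, had levels of 120.5, 267, 355 and 136. All 4 were highest on the Oct4/GFP (−) array, as were MARS, GARS, IARS and NARS. As deposited, ASNS, SESN2, TRIB3 and DDIT3 were brightest on the Nestin/GFP (+) array (1467, 116, 125 and 462, against 420, 103, 97 and 111 in Oct4/GFP (−) cells), as were the 4 synthetases, so this order rests on the scaling. ATF4 mRNA itself, whose protein is controlled mainly in translation, had levels of 136, 102, 124 and 210. PPP1R15A, the phosphatase subunit that returns eIF2 to its active form, had levels of 72.5, 31.5, 34.5 and 47. Not every gene of the list was highest in Oct4/GFP (−) cells: of 13 above background on all arrays, 7 were.

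**Figure D4:**
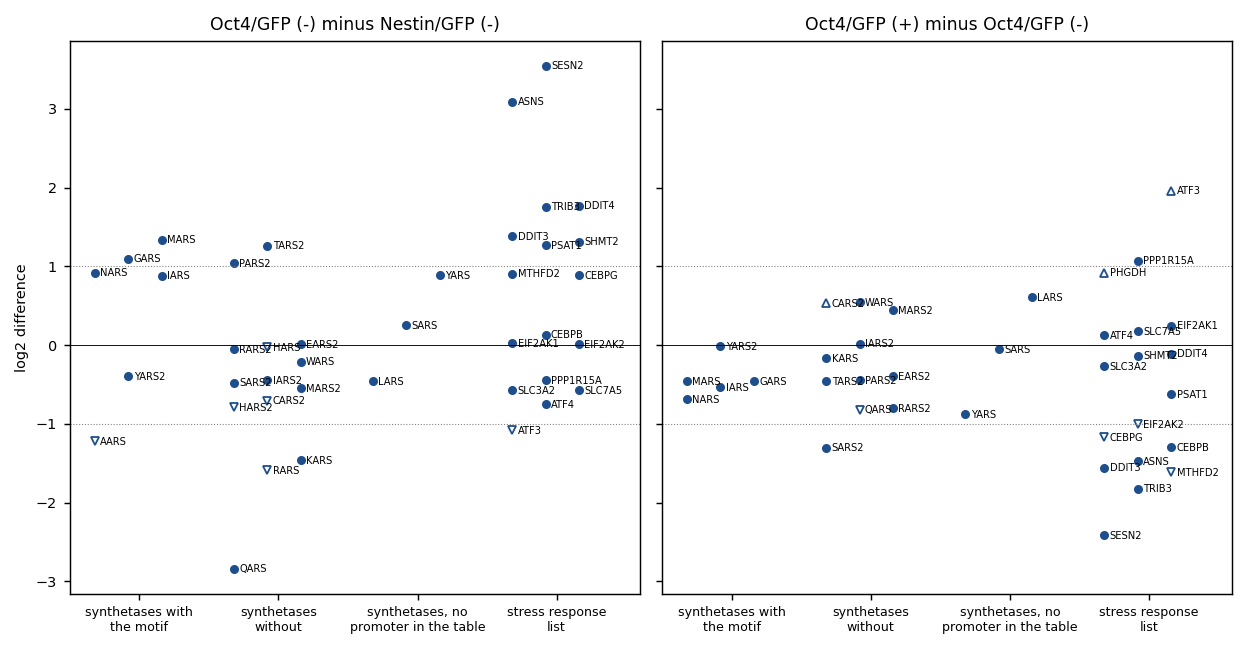
Log2 difference of the synthetases, split by the TGATGNAA motif in their promoter, and of the stress response list, in Oct4/GFP (−) minus Nestin/GFP (−) cells (left) and in Oct4/GFP (+) minus Oct4/GFP (−) cells (right). Triangles are bounds, and the panels share the Oct4/GFP (−) array. MARS, GARS, NARS and IARS lie between 0.88 and 1.34 on the left and between -0.69 and -0.46 on the right, and ASNS, SESN2, TRIB3 and DDIT3 lie past 2-fold in both panels.

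The next question was how GFP (+) cells differ from GFP (−) cells of the same reporter. For the Oct4 reporter 4 of 54 members were more than 2-fold higher in GFP (+) cells and 9 lower, where 10.6% and 19.5% of all 4957 genes were (30.1% in all). The lower members were EIF4G1, EIF2A, EIF3G, EIF6, EIF3EIP, EIF4E3 and EIF4ENIF1, which are initiation factors or their regulators, together with EEF1E1 and SARS2. EIF4G1, EIF4E3, EIF4ENIF1 and EEF1E1 were bounds. Of the 19 synthetases compared SARS2 alone was called past 2-fold, 2.46-fold lower. QARS, at least 1.77-fold lower, and CARS2, at least 1.44-fold higher, were bounds and could be past it. The 9 measured cytosolic synthetases had a median of -0.46 on the log2 scale, against -0.04 for all genes. Higher members were EIF5B, the factor that joins the ribosomal subunits (72.5, 50.5, 34.5 and 45), EIF3B, and EIF4G2 and EIF5A2 as bounds. Median centring made this 6 higher and 6 lower, and centring on bright probes 2 higher and 9 lower. EIF5B and EIF3B were under 2-fold with a limit of 5 noise SD, at 0.17 and 0.91 on the log2 scale.

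For the nestin reporter few translation genes passed 2-fold when GFP (+) cells were set against GFP (−) cells. Past 2-fold were 3 members higher and 3 lower of 64, where 7.4% and 5.81% of all 6193 genes were (13.2% in all). Higher in Nestin/GFP (+) cells were EPRS at 2.55-fold, EIF3D at 2.15-fold and EIF2B2 at 2.03-fold. EIF3D, an eIF3 subunit that can bind the cap of some mRNAs, had deposited intensities of 0, 97, 5 and 38. Lower were KARS at 3.12-fold, EIF3B at 2.36-fold and MARS2, the mitochondrial methionine enzyme, at 2.26-fold (57.75, 27.5, 42.5 and 62.25). The median over 58 measured members was 0.28, against 0.04 for all genes. This rested on scaling too: with median centring 29 of 63 members were higher and 0 lower, where 28.5% and 2.37% of all genes were, at an all-gene median of 0.66. With centring on bright probes 2 were higher and 4 lower, where 5.42% and 10.9% of all genes were.

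No member was more than 2-fold higher, or lower, in the GFP (+) cells of both reporters among 53 compared, where 0.871% and 0.494% of all genes were. EIF3B alone went past 2-fold in opposite directions, 1 of 53 members (1.89%), against 100 of 4250 genes (2.35%). The differences of the members between GFP states correlated across genes with r = -0.03 (45 members) and those of all genes with r = -0.10. EIF2C1 (AGO1), the Argonaute gene that was measured, had levels of 149, 70.4, 128 and 75, higher on both Oct4 arrays and 2.11-fold higher in the GFP (+) pair. That difference turned to -0.15 on the log2 scale with median centring.

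An additive fit with reporter and GFP state as terms was the test the 4 arrays allow, with 1 residual degree of freedom. It assumes that the reporter difference is the same in both GFP states. Pooling of variance over genes gave 5.81 total degrees of freedom, 41.1 with median centring and 1976 with a limit of 5 noise SD. Calls at the larger values rest on variance shared over genes, not on more arrays. In limma, 0 of the 45 members and 0 of 2853 genes passed an adjusted p of 0.05 for either term. At an unadjusted p under 0.05 there were 2 members for the reporter term (384 of all genes) and 0 for GFP state (68 of all genes). These were EEF1B2, at a log2 difference of 1.69 (SE 0.44) and an adjusted p of 0.339 by limma, and EIF2B2, at -1.55 (SE 0.45) and an adjusted p of 0.339. QARS, EEF1E1, AARS, RARS and EIF4G1 could not enter the fit because they were under the limit on at least 1 array. Centring on array medians, which shifts all genes, gave 10 of 45 members by the same test, all lower with the Oct4 reporter, and 520 of all genes (18.2%).

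Other lists of the translation machinery were counted too. Of 22 genes of termination, mRNA binding and TOR signaling with a probe, 2 were higher and 4 lower (22.2%) of 18 compared in Oct4/GFP (+) against Nestin/GFP (+) cells, where 13.3% and 16.1% of all genes were. In the GFP (−) pair 5 (31.2%) were higher and 2 lower of 16, where 21.2% and 12.4% of all genes were. Of 13 mitochondrial translation factors, 1 was higher and 2 lower of 8 in the first of these pairs, and 0 higher and 2 lower of 6 in the second. Of 4 synthetase subunits and partners outside the rule, 1 was higher of 3 in the GFP (+) pair and 1 lower of 3 in the GFP (−) pair. Of 6 genes of selenoprotein synthesis and other specialised elongation, only 2 or 3 could be compared in each comparison, and none of those was past 2-fold. No gene of these lists or of the stress response list was past 2-fold in the same direction in both reporter comparisons, as QARS, EEF1E1, AARS, RARS, EIF4G1, EIF2B2 and EEF1B2 were.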

How the data were processed

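The 4 H1299 populations were hybridized to Phalanx Human OneArray 4.2 slides, 1 array for each. The authors deposited a table of linear intensity values, some of them negative. Their background subtraction, scaling and feature extraction software are not described. Intensities were quantile normalized. Noise was estimated per array from the negative values, as their root mean square (5.10, 7.57, 4.62 and 6.76), and the background limit was set at 3 times this noise SD. Smaller values were replaced by a floor, the smallest normalized value that passed the limit on that array, before taking log2. A gene's level is the mean of its probes that passed the limit on any array. Because floors differ between arrays, a bound depends on the floor. Gene symbols came from the platform annotation, 76 of 77 members matched a gene in the RefSeq table of GRCh38.p14, and promoters came from RefSeq.

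Members, lists, rules and settings were chosen with earlier results of these data known. Named were members past 2-fold the same way in both reporter or both GFP comparisons, the 3 largest measured differences each way, genes with 2 or more probes above background on all arrays, and the 2 members of each family with the highest mean level. Others were named after their values were seen. No level of the Y-linked member is given.

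The additive fit used limma 3.58.1 (R 4.3.3) with Benjamini-Hochberg adjustment over all genes fitted. Other steps used Python 3.11.15, numpy 2.4.6, pandas 2.3.3 and matplotlib 3.10.9, and both were tested on simulated data. Alternatives were median centring, centring on probes above background on all arrays, a limit of 5 noise SD, an offset of 50 with no limit, the brightest probe of a gene, leaving out probes apart on the Oct4/GFP (+) array and a variance trend in limma. A pair of alternatives was added later, with the data in view: normalization without the Oct4/GFP (+) array, and counts that leave out the bounds.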

Additional observations from a re-analysis of the deposited data

Results flagged for a closer look

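EIF3B, a core subunit of eIF3, was taken up because its GFP (+) minus GFP (−) difference ran in opposite directions in the reporters. It was 1.04 on the log2 scale for the Oct4 reporter and -1.24 for the nestin reporter, from normalized levels of 120.5 and 58.75 and of 47.75 and 112.5. Deposited intensities were 83 and 22 for the Oct4 pair and 73 and 142 for the nestin pair. Under the alternatives the Oct4 difference was under 2-fold in 3, as small as 0.65, and the nestin difference in 2, as small as -0.60. Opposite differences past 2-fold were found for 1.89% of members and 2.35% of all genes. The difference between the reporters was not tested, since each population has 1 array.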

How the results depend on the processing

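No paired analysis was possible because the 4 populations share only replicate number 1, so a replicate block has no second pair. Median centring, which shifts all genes, moved the numbers of members past 2-fold from 23 to 35 (Oct4/GFP (+) over Nestin/GFP (+)) and from 6 to 29 (Nestin/GFP (+) over Nestin/GFP (−)). It gave log2 medians of -1.13, -0.66, 0.15 and 0.95 in the order Oct4/GFP (+) over Nestin/GFP (+), Oct4/GFP (−) over Nestin/GFP (−), Oct4/GFP (+) over Oct4/GFP (−), Nestin/GFP (+) over Nestin/GFP (−). It turned EEF1B2 (-0.074) and EIF2C1 (-0.15) in the first comparison. Centring on bright probes gave a median of -0.086 in the GFP (−) reporter comparison. There 6 members were higher and 7 lower, where 22.7% and 11.2% of all genes were. An offset of 50 gave 13, 7, 6 and 1 of 77 members past 2-fold, where 3.85%, 3.87%, 3.62% and 0.827% of all genes were, and medians of -0.050, -0.049 and 0.088 in the first, second and last comparison. A limit of 5 noise SD left 10 of 41 and 6 of 39 members in the second and the third, where 26.9% and 24.0% of all genes were. Leaving out the bounds left 15 of 51 and 7 of 45 in the first and the third. Of all genes measured, 509 were then higher and 476 lower of 4126 in the first, and 247 and 433 of 3207 in the third. The reporter term of the fit gave 10 members with median centring, where 18.2% of all genes passed. It gave 1 of 32 (EEF1B2) with the limit of 5 noise SD, where 3.39% of all genes passed. The other settings gave 0 members, where 3.51% of all genes passed with centring on bright probes. Of the 6 members lower in both reporter comparisons, all remained with median centring, where 17 of 56 members and 22.4% of all genes were lower in both. Of these 6, 4 remained with centring on bright probes, and 3 each with the limit of 5 noise SD and the offset, where 3.93%, 2.44% and 0.374% of all genes were. Of the values of named genes under the alternatives, 217 kept their side of 2-fold, 52 were under it and 2 reversed. The 217 overstate stability. Leaving out probes apart on the Oct4/GFP (+) array could change no member, since no member probe was apart. Taking the brightest probe could change only members with several probes. Of the 52, 24 came with the offset (EIF2A, EIF3G, EIF4G1, MARS and SARS2 among them), 13 with median centring (KARS in the Nestin pair, MARS, MARS2 and TARS2 among them), 8 with centring on bright probes and 7 with the limit of 5 noise SD. Signal over background limits the dim members, chiefly on the Oct4 arrays.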
